A study of Homo sapiens with 5 samples.

Results

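The genes described here are the 40 listed genes for the Sm proteins, the LSm proteins, the particle-specific proteins of the spliceosomal snRNPs, the SF3A and SF3B subunits, the factors that read the 3′ splice site, and *SRSF2*. They were matched by Ensembl ID to the count table, in which all 40 have a row among 27328 genes, and 39 of them passed the filter on low counts that left 14391 genes for testing. They were measured by RNA-seq in TF-1, a human AML cell line established from erythroleukemia. Control cells carried a single guide RNA against renilla luciferase, a gene that human cells lack, and the 2 control libraries are named sgCtrl 1 and 2 by their labels. The 3 *MTSS1* knockout libraries carried sgMTSS1_1, sgMTSS1_2, and sgMTSS1_3, so that each knockout replicate had its own guide RNA. Each library came from a pool of 4 single-cell clones, which were selected as lacking MTSS1 protein in the knockout, and p-values measure the spread between such pools. The cells were otherwise untreated as far as the labels say. Both groups share the transduction with Cas9 and a guide RNA and the single-cell cloning. Only the knockout guides have a target gene in human cells. The question was which mRNAs differ between TF-1 cells with and without MTSS1, a protein that couples membranes to the actin cytoskeleton.

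Introns are removed from pre-mRNA by the spliceosome, which is built from the U1, U2, U4, U5, and U6 snRNPs. In U1, U2, U4, and U5, a ring of Sm proteins closes around the snRNA, whereas U6 carries a ring of the related LSm2-8 proteins, and an LSm1-7 ring acts in the cytoplasm in mRNA decay. U1 recognizes the 5′ splice site, U2AF recognizes the 3′ splice site, and U2 with SF3A and SF3B binds the branch point, after which the U4/U6.U5 tri-snRNP joins and the catalytic center forms. *SF3B1*, *U2AF1*, *SRSF2*, and *ZRSR2* are recurrently mutated in myeloid neoplasms, which is why their values are given in full.

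Libraries were made with a QuantSeq 3′ kit, so that reads start near the poly(A) tail and their number follows mRNA molecules and not transcript length. Levels are therefore given as counts scaled to a fixed library total (CPM) on the TMM-normalized scale and can be compared between genes apart from reads that were discarded as not unique. Total counts ranged from 2849979 to 3408827 in the control and from 5442639 to 8854899 in the knockout libraries, and the level that 3 counts correspond to lay between 0.389 and 0.938 CPM. Intervals and floors of this kind cover counting error only. Ribosomal protein genes took 7.92% and 9.51% of the control counts and 12.3% to 18.3% of the knockout counts, highest in the sgMTSS1_1 pool. Mitochondrially encoded genes took 13.9% and 8.63% against 7.44%, 7.37%, and 6.71%, with control pool 1 apart from the other libraries, and the part of either share in any result was not tested. Markers of TF-1 cells were present in all libraries, with 13 of 13 in the table, 0 differentially expressed, and a summed level of 1740 to 2210 CPM in the control and 1550 to 1780 CPM in the knockout pools. Marker lists of other cell types summed to 3.44 to 3.87 against 1.26 to 7.66 CPM for T cells, 19.7 to 20 against 9.21 to 12.3 CPM for B cells, 0.625 to 0.894 against 0.181 to 1.04 CPM for fibroblasts, and 65.7 to 136 against 146 to 159 CPM for epithelial cells. Of these, 0 T cell, 3 B cell, 0 fibroblast, and 2 epithelial genes passed the filter on low counts, and 0 of those tested were called. The part of the epithelial markers in any result was not tested. *MTSS1* mRNA itself was at 204 and 87.9 CPM in the control pools and at 104, 139, and 49.9 CPM in the knockout pools, with an adjusted p of 0.494, so that its mRNA level does not check the labels.

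Of the 39 core spliceosome genes tested, 4 were higher in the *MTSS1* knockout and 0 were lower. These were *SNRPG*, *SNRPF*, and *SNRPD1*, which encode 3 proteins of the Sm ring, and *SNRPB2*, which encodes the U2 B″ protein. A gene was called differentially expressed when its adjusted p was under 0.05 in the quasi-likelihood test of edgeR, adjusted after Benjamini and Hochberg over all 14391 genes, and its log2-fold change lay beyond 1 in either direction. Among all tested genes 4.17% were called higher and 1.01% lower, 5.18% in either direction, against 10.3% of the spliceosome genes called higher. An unadjusted p under 0.05 was reached by 9 spliceosome genes that were higher and 3 that were lower, together 30.8% against 23.3% of all tested genes. DESeq2 called 6 of the spliceosome genes higher and 0 lower, where it called 7.02% of all tested genes higher and 2.31% lower. For limma-voom the numbers were 4 and 0, beside 3.54% and 0.862% of all tested genes. All 3 knockout pools lay above both control pools for 12 genes, or 30.8% against 22.2% of all genes, and below both for 2 genes, or 5.13% against 19.2%. Over the 39 genes, log2-fold changes ranged from -0.98 to 4.70 with a median of 0.14, beside a median of -0.03 over all tested genes. Without control pool 1, which left a single control pool, all 40 genes were tested. Their median log2-fold change was then 0.20, beside 0.06 over all genes tested in that setting. In bulk RNA, fewer cells of a kind and less RNA per cell cannot be told apart.

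**Figure D1:**
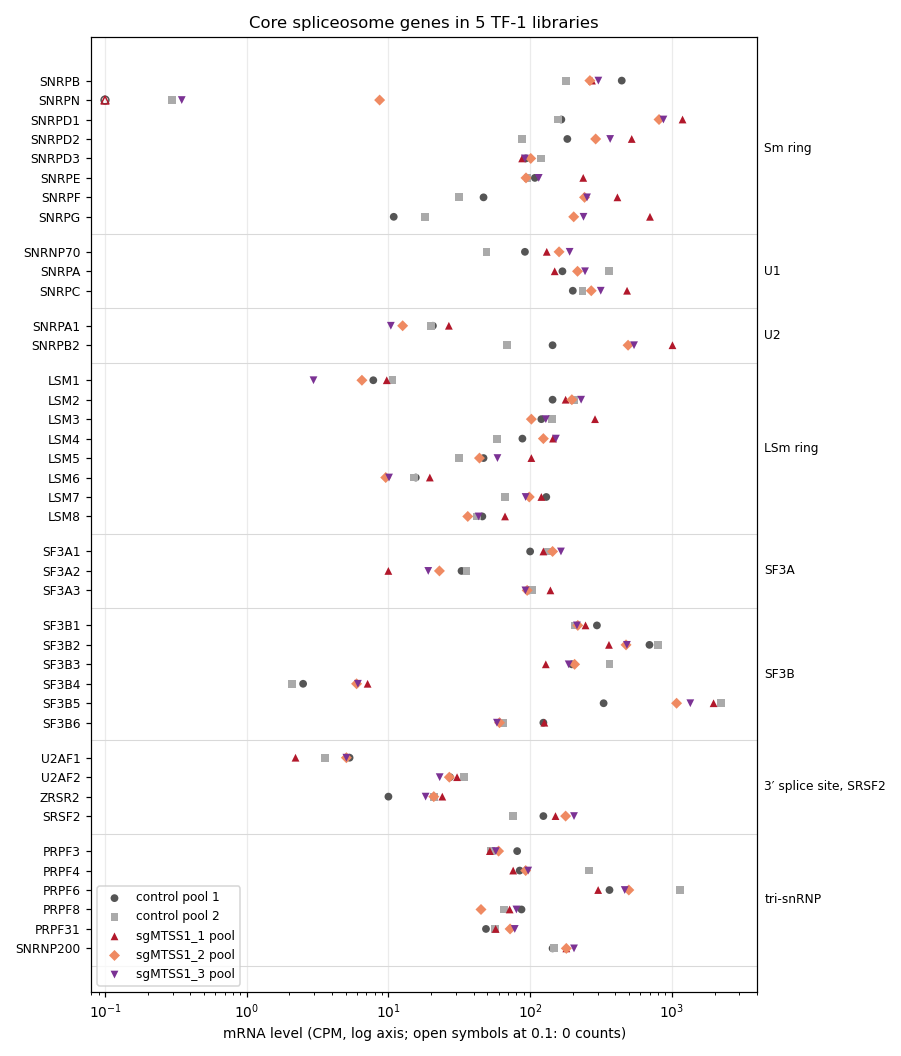
mRNA levels of the 40 core spliceosome genes (CPM, log axis) in each of the 5 TF-1 libraries, ordered by role, with gray symbols for the control pools and colored symbols for the knockout pools. The knockout pools stand to the right of both control pools for *SNRPD1*, *SNRPF*, *SNRPG*, and *SNRPB2*, while for most LSm, SF3, and tri-snRNP genes the symbols of both groups overlap.

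*SNRPG*, in the Sm ring, had the largest log2-fold change of the 39 genes. Of the ring's 8 genes, 7 were tested and 3 were called higher, with a median log2-fold change of 1.53 and no gene below -0.19. *SNRPG* (ENSG00000143977, chr2:70281362-70293740, minus strand, GRCh38) encodes SmG, the smallest protein of the ring. It was at 10.9 and 18.2 CPM in control pools 1 and 2 and, in the order of the guide numbers used throughout, at 701, 203, and 238 CPM in the knockout pools. The groups did not overlap, and the sgMTSS1_1 pool was well above the other two knockout pools. The means were 14.6 ± 5.12 (SD, n = 2) and 380 ± 278 CPM (SD, n = 3), a 26.1-fold difference, and the log2-fold change was 4.70 (SE 0.66) with an adjusted p of 0.00984. Without the sgMTSS1_1 pool the log2-fold change was 3.90 with an adjusted p of 0.0274.

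*SNRPF* (ENSG00000139343, chr12:95858952-95903828, plus strand), which encodes SmF, was at 46.9 and 31.3 CPM in the control pools and at 413, 242, and 252 CPM in the knockout pools. Every knockout pool was above both control pools. The difference was 7.73-fold, with a log2-fold change of 2.95 (SE 0.40) and an adjusted p of 0.00884. The gene body is overlapped on the opposite strand by *CCDC38* and on the same strand by the unnamed gene ENSG00000285030, with which reads may be shared. *SNRPD1* (ENSG00000167088, chr18:21612314-21633524, plus strand) encodes SmD1, the partner of SmD2 in the ring. Its level was 166 and 158 CPM in the control pools and 1190, 812, and 872 CPM in the knockout pools. The control pools were nearly equal and the knockout pools were 5.90-fold higher on average, with a log2-fold change of 2.56 (SE 0.36) and an adjusted p of 0.00984. *SNRPD1* overlaps no other annotated gene, and no pseudogene is named after it.

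The other Sm genes did not pass the test. *SNRPD2*, the gene for SmD2, was at 183 and 87.9 CPM in the control and at 521, 290, and 367 CPM in the knockout pools, which lay above both control pools, and its log2-fold change of 1.53 (SE 0.42) had an adjusted p of 0.0652. *SNRPE*, the gene for SmE, was at 108 and 95.7 against 237, 93.5, and 115 CPM (log2-fold change 0.55, SE 0.41, adjusted p 0.468). Here only the sgMTSS1_1 pool stood clear of the control pools. *SNRPD3*, which encodes SmD3, was at 93.2 and 120 against 87.8, 101, and 91.7 CPM (-0.19, SE 0.28, adjusted p 0.735), and *SNRPB*, which encodes SmB and SmB′, was at 443 and 179 against 273, 264, and 303 CPM (-0.15, SE 0.39, adjusted p 0.854). For both genes the pools of the groups overlapped. *SNRPN*, the imprinted gene for SmN, had too few reads to be tested, its counts being 0 and 1 for the control and 0, 48, and 2 for the knockout. Almost all of its reads came from the sgMTSS1_2 pool, where it was at 8.67 CPM.

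Summed over the 8 genes, Sm mRNA amounted to 1050 and 691 CPM in the control pools and to 3420, 2010, and 2240 CPM in the knockout pools, so that the knockout mean was 2.94 times the control mean. SmD1 and SmD2 mRNAs were both above the control in every knockout pool, SmF and SmG mRNAs were as well, and SmE mRNA, the third of the SmE, SmF, and SmG trio, overlapped between the groups, as did SmD3 and SmB mRNAs. Whether these genes differ from each other in their change was not tested.

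U1 and U2 each carry proteins of their own. *SNRNP70*, the gene for U1-70K, was at 91.9 and 49.2 CPM in the control and at 131, 160, and 190 CPM in the knockout pools. The groups did not overlap, but the log2-fold change of 1.18 (SE 0.36) had an adjusted p of 0.0884. *SNRPC*, the gene for the C protein of U1, which contacts the 5′ splice site, was at 200 and 234 against 483, 270, and 315 CPM (log2-fold change 0.71, SE 0.35, adjusted p 0.253). *SNRPA*, the gene for the A protein of U1, was at 169 and 361 against 149, 216, and 244 CPM (-0.39, SE 0.38, adjusted p 0.591), and its groups overlapped. Of the 3 U1 genes 0 were called by edgeR, 1 had an unadjusted p under 0.05, and DESeq2 called 1, *SNRNP70*, with an adjusted p of 0.0311.

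*SNRPB2* (ENSG00000125870, chr20:16729961-16742564, plus strand) encodes U2 B″, a close relative of the U1 protein encoded by *SNRPA* that binds U2 snRNA together with U2 A′. It was at 144 and 68.5 CPM in the control pools and at 1010, 491, and 541 CPM in the knockout pools. No pool overlapped with the other group, and the difference was 6.41-fold with a log2-fold change of 2.68 (SE 0.49) and an adjusted p of 0.0197. The call was lost without the sgMTSS1_1 pool, where the log2-fold change was 2.27 and the adjusted p 0.0671. Without control pool 1, the log2-fold change was 3.33 with an adjusted p of 0.0134. *SNRPA1*, which encodes the partner protein U2 A′, was at 20.6 and 20 CPM in the control and at 26.7, 12.6, and 10.4 CPM in the knockout pools (-0.28, SE 0.44, adjusted p 0.745). In control cells *SNRPB2* mRNA was thus at a mean of 106 CPM and *SNRPA1* mRNA at 20.3 CPM, and in the knockout they were at 682 and 16.6 CPM. Much of the 3′ end of *SNRPA1* also occurs elsewhere in the genome, where reads cannot be placed uniquely.

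**Figure D2:**
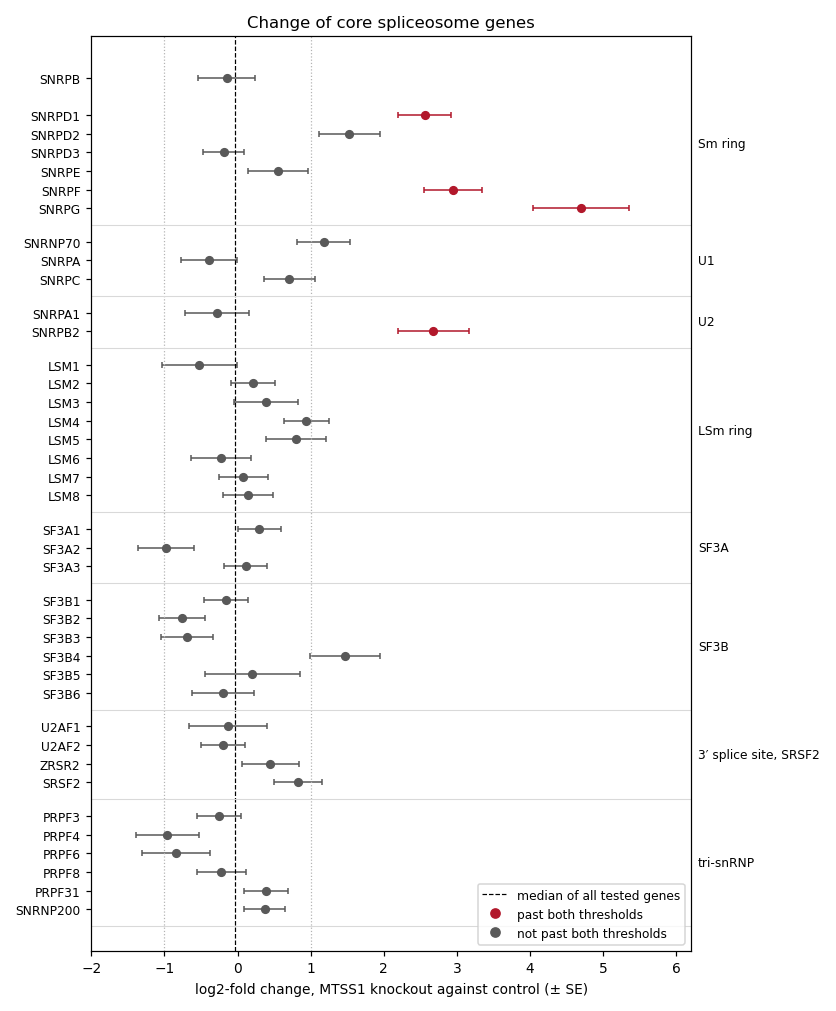
log2-fold changes of the 39 tested spliceosome genes in *MTSS1* knockout against control pools, with bars of 1 SE, ordered by role. Red points are the 4 genes past both thresholds, dotted lines mark the fold threshold on each side, and the dashed line is the median of all tested genes at -0.03.

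No LSm gene was called. All 8 were tested, 0 passed, and 1 had an unadjusted p under 0.05, with a median log2-fold change of 0.18. DESeq2 and limma-voom called 0 of them as well. Of the 8 estimates 6 were positive and 2 were negative, and the signs of *LSM7* and *LSM8* turned negative when libraries were scaled by library size alone. *LSM4* (ENSG00000130520, chr19:18306236-18323112, minus strand) had the largest estimate, at 88.2 and 58.1 CPM in the control and 145, 124, and 152 CPM in the knockout pools. It was the only LSm gene whose groups did not overlap, and its log2-fold change was 0.94 (SE 0.31) with an adjusted p of 0.112. Without control pool 1 the value was 1.28 with an adjusted p of 0.0468. *LSM5* was at 46.9 and 31.6 against 102, 43.9, and 58.8 CPM (0.80, SE 0.41, adjusted p 0.276), and *LSM3* was at 120 and 143 against 287, 102, and 129 CPM (0.39, SE 0.44, adjusted p 0.637). Both were highest in the sgMTSS1_1 pool. *LSM1*, the subunit that marks the cytoplasmic ring, was at 7.82 and 10.7 against 9.73, 6.50, and 2.96 CPM (-0.52, SE 0.51, adjusted p 0.585). *LSM8*, the subunit that marks the nuclear U6 ring, was at 46.0 and 42.3 against 66.5, 36.3, and 43.3 CPM (0.14, SE 0.34, adjusted p 0.840). *LSM2*, *LSM6*, and *LSM7* lay between -0.23 and 0.21, with adjusted p-values from 0.727 to 0.920. The summed LSm level was 599 and 572 CPM in the control and 927, 618, and 719 CPM in the knockout pools, a ratio of means of 1.29.

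Each Sm protein has LSm counterparts at the matching place of the ring, which allowed the pairs to be set side by side. *SNRPG* had a log2-fold change of 4.70 and *LSM7* of 0.08. *SNRPF* had 2.95 and *LSM6* -0.23. *SNRPD1* had 2.56 and *LSM2* 0.21, and *SNRPD2* had 1.53 and *LSM3* 0.39. For the remaining places the values were 0.55 for *SNRPE* and 0.80 for *LSM5*, -0.19 for *SNRPD3* and 0.94 for *LSM4*, and -0.15 for *SNRPB* beside -0.52 for *LSM1* and 0.14 for *LSM8*. The difference within a pair was not tested.

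**Figure D3:**
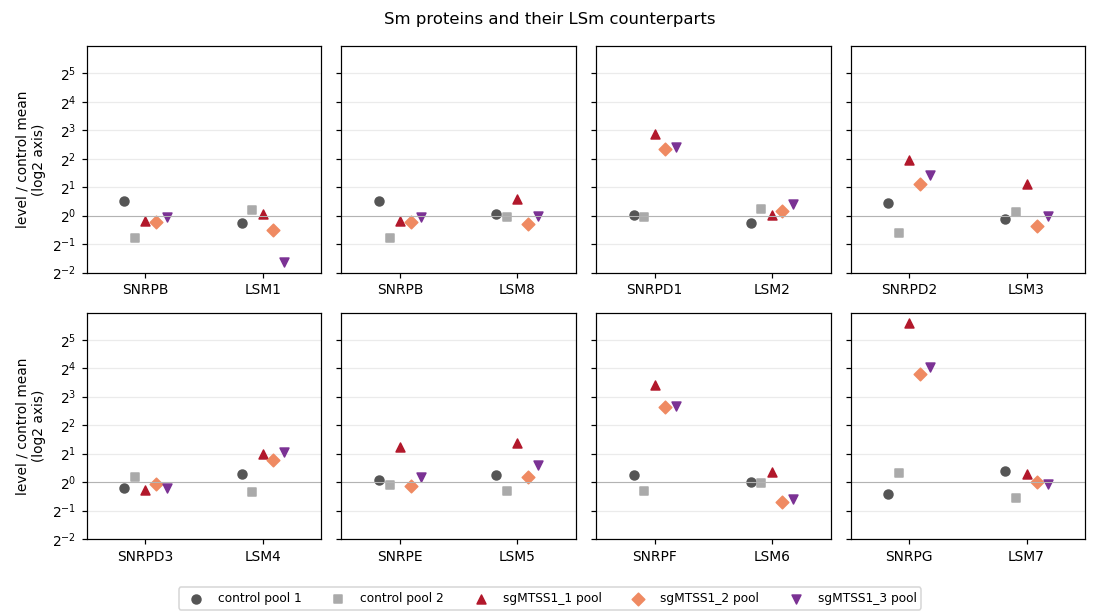
Level of each Sm gene and of the LSm gene at the matching ring place, divided by its own control mean (log2 axis), in the 5 libraries. The 3 knockout pools lie above both control pools for *SNRPD1*, *SNRPD2*, *SNRPF*, and *SNRPG*, and among the LSm genes only for *LSM4*.

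SF3A and SF3B hold the U2 snRNP on the branch point, and none of their 9 genes was called. *SF3A2* (ENSG00000104897, chr19:2236824-2248655, plus strand) had the largest fall of all 39 genes. Its level was 32.8 and 35.5 CPM in the control and 9.99, 22.9, and 19.1 CPM in the knockout pools. The knockout pools all lay under the control pools, but the log2-fold change of -0.98 (SE 0.38) had an adjusted p of 0.162. *SF3A1* was at 100 and 134 against 124, 144, and 165 CPM (0.30, SE 0.30, adjusted p 0.594) and *SF3A3* at 98.2 and 104 against 139, 95.3, and 92.6 CPM (0.11, SE 0.30, adjusted p 0.866). Both overlapped between the groups. An unadjusted p under 0.05 was reached by 1 of the 3 SF3A and 2 of the 6 SF3B genes, and DESeq2 and limma-voom called 0 of either complex.

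*SF3B1* (ENSG00000115524, chr2:197388515-197435079, minus strand), the large HEAT-repeat subunit that holds the branch point adenosine, was at 296 and 207 CPM in the control and at 246, 217, and 214 CPM in the knockout pools. The knockout pools lay within the control range, with a log2-fold change of -0.16 (SE 0.30) and an adjusted p of 0.798. *SF3B2*, which encodes a subunit that contacts the pre-mRNA near the branch point, was at 695 and 795 against 360, 475, and 482 CPM. The knockout pools were all lower, and the log2-fold change of -0.76 (SE 0.31) had an adjusted p of 0.179. *SF3B4* (ENSG00000143368, chr1:149923317-149927803, minus strand), an RNA-binding subunit, had the largest estimate of the complex, at 2.50 and 2.09 against 7.13, 5.96, and 6.09 CPM. This amounts to 8 and 7 counts in the control and 55, 33, and 35 counts in the knockout libraries. The groups did not overlap, and the log2-fold change of 1.47 (SE 0.48) had an adjusted p of 0.105. *SF3B3* was at 197 and 363 against 129, 206, and 187 CPM (-0.69, SE 0.36, adjusted p 0.282), and *SF3B6*, the gene for the branch point protein p14, at 124 and 64.7 against 126, 60.8, and 58.3 CPM (-0.20, SE 0.42, adjusted p 0.817).

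*SF3B5*, which encodes the smallest SF3B subunit, was the most variable of the spliceosome genes between control pools. It was at 330 CPM in control pool 1 and 2220 CPM in control pool 2, a 6.73-fold gap, and at 1970, 1080, and 1350 CPM in the knockout pools. Its log2-fold change was 0.20 (SE 0.65), -0.59 without control pool 1, and 2.18 without control pool 2, where the adjusted p was 0.0270. The direction for *SF3B5* therefore depends on which control pool is used. Control pools differed by more than 2-fold in 8 of the 39 genes, or 20.5%, and in 30.7% of all tested genes. The other 7 were *PRPF6*, *PRPF4*, *SNRPB*, *SNRPA*, *SNRPB2*, *ZRSR2*, and *SNRPD2*, with gaps from 2.08-fold to 3.14-fold.

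The 3′ splice site is read by *U2AF1* and *U2AF2* in the major and by *ZRSR2* in the minor spliceosome, and *SRSF2* is an SR protein that binds exonic enhancers. None of these 4 genes was called, 1 had an unadjusted p under 0.05, and DESeq2 and limma-voom called 0. *SRSF2* (ENSG00000161547, chr17:76734115-76737333, minus strand) was at 124 and 75.7 CPM in the control and at 151, 178, and 204 CPM in the knockout pools. The knockout pools were higher, with a log2-fold change of 0.83 (SE 0.33) and an adjusted p of 0.168. *MFSD11* overlaps *SRSF2* on the opposite strand, and whether counting used strand is not given in the sources used here. *ZRSR2* (ENSG00000169249, chrX:15790156-15830694, plus strand) was at 10 and 20.9 against 24.0, 20.9, and 18.3 CPM (0.45, SE 0.39, adjusted p 0.530). *U2AF2*, the large subunit that binds the polypyrimidine tract, was at 27.2 and 34.3 against 30.5, 26.9, and 23.0 CPM (-0.20, SE 0.30, adjusted p 0.745). For *ZRSR2* and *U2AF2* the groups overlapped.

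*U2AF1* (ENSG00000160201, chr21:43092956-43107570, minus strand), the small subunit that binds the AG of the 3′ splice site, was listed at 5.32 and 3.58 CPM in the control and at 2.21, 5.05, and 5.05 CPM in the knockout pools. The log2-fold change was -0.13 (SE 0.54) with an adjusted p of 0.915. This row holds only a part of the reads of the gene. GRCh38 contains an artificial second copy of the locus at chr21:6484623-6499248, which GENCODE tags as a duplication error with *U2AF1* as the true copy and which has a row of its own in the table, ENSG00000275895. The copies align over 14626 bases with 18 mismatches and 11 gap bases, an identity of 99.802%. None of the mismatches falls in coding sequence, 1 falls in an untranslated exon part, and 17 lie elsewhere in the locus. The 1 in an exon of the main annotated transcript, at chr21:43107559, lies near the 5′ end of this minus-strand gene. No exon base of that transcript near its 3′ end thus separates the copies, and neither row alone measures the gene. Of the windows of 50 bases in the last 300 bases of the *U2AF1* transcript, 245 of 251, or 97.6%, also occur elsewhere in the genome, and reads that map to more than 1 place had been removed before counting.

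The row of the duplicate held 28 and 13 counts in the control and 285, 163, and 231 counts in the knockout libraries, against 17 and 12 and 17, 28, and 29 counts for the row of *U2AF1*. The duplicate thus took a share of 62.2% and 52.0% for the control and of 94.4%, 85.3%, and 88.8% for the knockout. The duplicate row was called higher with a log2-fold change of 2.49 (SE 0.43) and an adjusted p of 0.0158. In an alternative chosen after these values were seen, the counts of both rows were added. The sum was at 14.1 and 7.45 CPM in the control and at 39.2, 34.5, and 45.2 CPM in the knockout pools, and the groups did not overlap. Its log2-fold change was 1.88 (SE 0.38) with an adjusted p of 0.0254, which would bring the number of called spliceosome genes to 5. The call of the sum was lost without control pool 2 (1.52, adjusted p 0.0511), without sgMTSS1_1 (1.88, adjusted p 0.0891), without sgMTSS1_2 (2.02, adjusted p 0.0529), and without sgMTSS1_3 (1.83, adjusted p 0.0784), and kept without control pool 1 (2.42, adjusted p 0.0140). The direction of the estimate for *U2AF1* thus depends on whether the duplicate row is counted. The sum, too, lacks the reads that were removed as not unique.

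**Figure D4:**
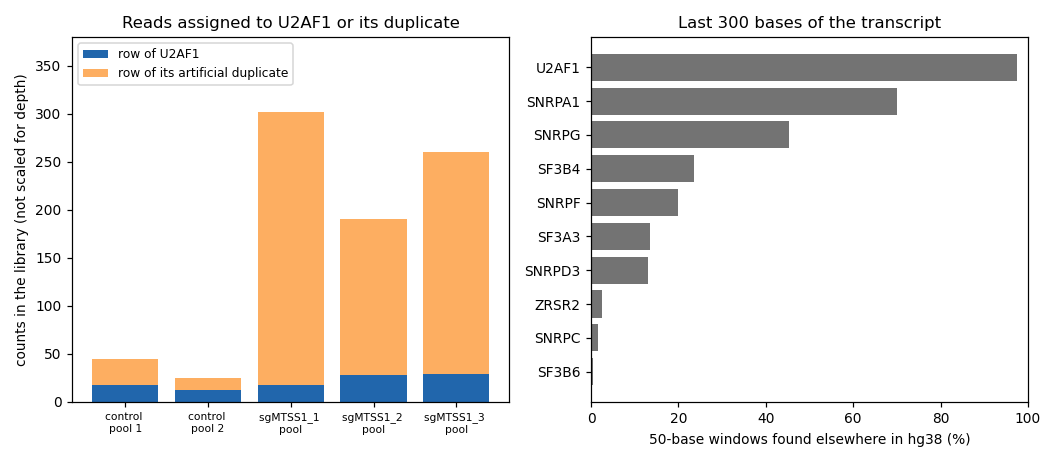
Left, counts per library, not scaled for depth, on the row of *U2AF1* and on the row of its artificial duplicate, stacked. Right, the share of 50-base windows in the last 300 transcript bases that occur elsewhere in the genome, for the 10 spliceosome genes with a share above 0. Most reads of the locus in the knockout libraries stand on the duplicate, and *U2AF1* has the least unique 3′ end of the 40 genes.

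The same measure of uniqueness was taken for all 40 genes, because it bears on the levels. After *U2AF1*, the shares were 70.1% for *SNRPA1*, 45.4% for *SNRPG*, 23.5% for *SF3B4*, 19.9% for *SNRPF*, 13.5% for *SF3A3*, and 13.1% for *SNRPD3*. *ZRSR2*, *SNRPC*, and *SF3B6* had at most 2.39%, and the other 30 genes, *SNRPD1* and *SNRPB2* among them, had none. Reads that lie wholly in such windows cannot be placed uniquely in the libraries of either group. Pseudogenes named after a spliceosome gene also held reads. For *SNRPG*, 8 such rows together had 18 and 12 counts in the control and 749, 165, and 219 counts in the knockout libraries, or 5.63 and 3.58 against 97.2, 29.8, and 38.1 CPM. They thus stood higher in the same libraries as *SNRPG* itself, which had 35 and 61 against 5403, 1124, and 1366 counts. For *SNRPD2*, 2 rows were at 3.75 and 5.07 against 22.1, 10.7, and 15.5 CPM. The 2 rows of *SNRPF* overlapped between the groups, at 1.56 and 3.58 against 3.63, 1.44, and 2.09 CPM. Other rows stood lower in the knockout pools, namely 4 of *SNRPC* at 18.1 and 15.2 against 6.87, 6.32, and 4 CPM and 2 of *SF3A3* at 5.94 and 3.28 against 2.72, 2.35, and 1.39 CPM. Reads of a gene and of its near-identical pseudogenes may be split between rows, so the levels of these genes are uncertain to that extent.

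The U4/U6.U5 tri-snRNP brings the catalytic snRNAs to the spliceosome, and 0 of its 6 genes were called, with a median log2-fold change of -0.23. One of them had an unadjusted p under 0.05, and DESeq2 and limma-voom called 0. *PRPF4* (ENSG00000136875, chr9:113275642-113294009, plus strand), a U4/U6 protein, was at 84.4 and 260 CPM in the control and at 75.9, 93.0, and 96.9 CPM in the knockout pools. *PRPF6*, a U5 protein that bridges the particles, was at 363 and 1140 against 302, 497, and 465 CPM. In both genes the low control pool was within the knockout range and the high one stood far above it. The log2-fold change was -0.96 (SE 0.43, adjusted p 0.212) for *PRPF4* and -0.84 (SE 0.47, adjusted p 0.319) for *PRPF6*. Without control pool 1 these values were -1.55 (adjusted p 0.0181) and -1.43 (adjusted p 0.0377), and without control pool 2 they were 0.10 and 0.24. *PRPF8*, the scaffold of the catalytic center, was at 86.9 and 65.6 against 71.7, 45.0, and 80.0 CPM (-0.22, SE 0.33, adjusted p 0.745), and *PRPF3* was at 81.0 and 53.0 against 52.0, 59.9, and 57.2 CPM (-0.25, SE 0.30, adjusted p 0.669). *SNRNP200*, the helicase that unwinds U4 from U6, was at 144 and 148 against 180, 180, and 204 CPM (0.37, SE 0.28, adjusted p 0.470), and *PRPF31* was at 48.8 and 56.6 against 57.1, 72.2, and 77.9 CPM (0.39, SE 0.30, adjusted p 0.469). For the last pair every knockout pool was above both control pools, by less than the test could separate.

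Added up, the 40 genes took 5130 and 7780 CPM in the control pools and 10200, 7260, and 8060 CPM in the knockout pools. The knockout mean was 1.32 times the control mean, and the total of the sgMTSS1_2 pool was below that of control pool 2. By role, the ratio of means was 5.51 for the U2-specific, 2.94 for the Sm, 1.53 for the 3′ splice site and *SRSF2*, 1.30 for the U1-specific, 1.29 for the LSm, 1.07 for the SF3A, 0.903 for the SF3B, and 0.702 for the tri-snRNP genes. The last pair of ratios is set by control pool 2, since the SF3B genes summed to 1640 and 3650 CPM in the control and to 2840, 2040, and 2290 CPM in the knockout pools, and the tri-snRNP genes to 808 and 1720 against 739, 947, and 981 CPM. *SF3B5* alone made up 330 and 2220 CPM of the control sums of SF3B. The U2-specific ratio is set by *SNRPB2*, with means of 106 CPM in the control and 682 CPM in the knockout. *SNRPA1*, the other gene of that group, had means of 20.3 and 16.6 CPM. The sgMTSS1_1 pool was the highest knockout pool for 21 of the 39 tested genes, sgMTSS1_3 for 12, and sgMTSS1_2 for 6. In the whole table these shares were 38.2%, 29.1%, and 32.7%. Against the control mean, the median log2 ratio of the 39 genes was 0.35 in sgMTSS1_1, -0.08 in sgMTSS1_2, and 0.07 in sgMTSS1_3.

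The called genes encode small proteins, and protein length was therefore looked at across the table. Among all tested protein-coding genes, 8.49% of 777 with up to 150 residues were called higher, 5.01% of 2154 with more than that and up to 300, 4.15% of 4217 with up to 600, and 2.24% of 3930 with more than 600 residues. The medians of the log2-fold change in these classes were 0.29, 0.15, 0.01, and -0.17. Of the spliceosome genes, 16 fell in the shortest class with a median of 0.30 and 3 called, 7 in the next with -0.13 and 1 called, and 8 in each of the longer classes with 0.25 and -0.23 and 0 called. The part of protein length in the result was not tested.

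Other genes of the splicing machinery were taken as lists of 113 genes, of which 108 were tested, 6 were called higher, and 1 lower. The 5.56% called higher stands beside 4.17% of all tested genes, and the median log2-fold change was 0.20. The exon junction complex, which is deposited upstream of exon junctions during splicing, had 3 of 5 genes called higher, and all 5 estimates were positive with a median of 1.26. *MAGOH* was at 90.0 and 74.8 CPM in the control and at 427, 406, and 315 CPM in the knockout pools (log2-fold change 2.21, SE 0.33, adjusted p 0.0109). *RBM8A*, which encodes its heterodimer partner Y14, was at 45.0 and 49.8 against 131, 94.6, and 114 CPM (1.26, SE 0.30, adjusted p 0.0447). *EIF4A3*, the helicase that anchors the complex on RNA, was at 22.2 and 11.9 against 118, 39.7, and 65.1 CPM (2.13, SE 0.51, adjusted p 0.0452). The fourth core gene, *CASC3*, was at 69.1 and 103 against 174, 203, and 156 CPM with a log2-fold change of 1.05 and an adjusted p of 0.0883. *MAGOHB*, the remaining gene of the list, was at 27.8 and 23.2 against 35.8, 22.2, and 19.8 CPM. Its groups overlapped, and its log2-fold change was 0.03 (SE 0.35, adjusted p 0.975).

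Of the other SR proteins, 2 of 12 tested genes were called higher. *SRSF1* was at 62.8 and 28.3 CPM in the control and at 629, 192, and 266 CPM in the knockout pools (2.99, SE 0.60, adjusted p 0.0248), and *TRA2A* was at 62.8 and 59.3 against 164, 190, and 189 CPM (1.57, SE 0.29, adjusted p 0.0209). Of the hnRNP genes 1 of 19 was called, *HNRNPL*, which rose from 64.7 and 53.9 to 231, 309, and 240 CPM (2.13, SE 0.32, adjusted p 0.0114). For these 3 genes the groups did not overlap. Of 10 mRNA decapping partners of *LSM1*, 1 was called lower, *EDC4*, at 2.50 and 2.98 CPM in the control and 0.519, 0.181, and 0.174 CPM in the knockout pools (-3.05, SE 0.72, adjusted p 0.0422). Its knockout values rest on 4, 1, and 1 counts. No gene was called among 13 other U2 and U5 proteins (median 0.20), 11 other tri-snRNP and B complex proteins (-0.04), 20 PRP19 complex and catalytic step factors (0.24), 12 factors of Sm ring assembly and snRNA transport (0.43), or 6 minor spliceosome proteins (0.20). In these 5 lists 0, 1, 1, 4, and 1 genes had an unadjusted p under 0.05 in the edgeR test. The shares were 0%, 9.09%, 5%, 33.3%, and 16.7%, beside 23.3% of all tested genes.

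Promoter sequences were inspected because several members were higher together. The RefSeq promoter table (GRCh38.p14) held 34 of the 40 genes, with 250 bases before and 50 bases after the start, and was searched on both strands for 8 motifs. Of the 4 called genes, *SNRPD1* has no entry there and was not searched. Apart from the CArG box, a pattern whose matches can include CCAAT, none of the searched strings contains another of them. The ETS core CCGGAAG occurred in 17 of the 34, or 50%, against 17.4% of the promoters of tested genes and 10.3% of 35116 promoters. Among the called genes it was found for *SNRPB2* and *SNRPG*, and also for genes that were not called, such as *SNRPB*, *SNRPA1*, *LSM5*, and *LSM8*. A CCAAT box occurred in 8 (23.5% against 35.3% of tested genes and 34.6% of all), among them *SNRPF*, and a GC box GGGCGG in 21 (61.8% against 65.2% and 45.0%), among them *SNRPF*. The YY1 motif AAGATGGCG occurred in 3 (8.82% against 3.51% and 1.75%), the E-box CACGTG in 1 (2.94% against 9.40% and 7.26%), the palindromic NRF1 motif in 1 (2.94% against 2.03% and 1.24%), and the CRE TGACGTCA (2.87% and 1.85%) and the CArG box bound by SRF (1.07% and 1.29%) in 0. Such matches are descriptions of letters and not of bound sites. The following windows of 27 bases show the ETS core, in capitals, on the strand on which it reads, for both called genes that hold it and for 4 genes that were not called, since called and uncalled genes both hold it.
*SNRPB2*, chr20:16729994-16730020, minus strand: gagccaggcaCCGGAAGcaacgtagcc
*SNRPG*, chr2:70293383-70293409, plus strand: gactagtcggCCGGAAGgaggtgccgt
*SNRPB*, chr20:2470814-2470840, minus strand: gtgagctggaCCGGAAGtaggtttcta
*SNRPA1*, chr15:101295345-101295371, plus strand: ggcgttcttgCCGGAAGtcgtggcgcg
*LSM5*, chr7:32495494-32495520, plus strand: aggtgacagcCCGGAAGctgcggaagc
*LSM8*, chr7:118183965-118183991, minus strand: gggccgtgttCCGGAAGcctcgtaaga

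The flanking letters around the core differ among these windows. The windows of *SNRPB2*, *SNRPG*, and *SNRPB* lie inside the GENCODE spans of these genes. For these genes the RefSeq start used here lies downstream of the GENCODE start. *SNRPB2* carries the shown core 22 bases and *SNRPB*, which was not called, 41 bases before the RefSeq start. *SNRPF*, called higher without an ETS core in its window, has 2 CCAAT boxes within the 100 bases before its start, shown in capitals on the plus strand at chr12:95858852-95858951.
*SNRPF*: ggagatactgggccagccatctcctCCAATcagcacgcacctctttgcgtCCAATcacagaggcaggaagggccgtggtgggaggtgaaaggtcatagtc

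The calls were recomputed under 15 alternatives each. *SNRPD1*, *SNRPF*, and *SNRPG* passed both thresholds in 15 of 15, with log2-fold changes from 2.36 to 2.71, from 2.58 to 3.28, and from 3.90 to 5.14, and *SNRPB2* in 14 of 15, from 2.27 to 3.33. *SNRPD2* passed in 4, which were DESeq2 (adjusted p 0.00704), no filter on low counts (0.0114), the pool number as a block (0.0141), and the data without control pool 1 (0.0233). *SNRNP70* passed in 3, from 0.83 to 1.72 over all alternatives.

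**Figure D5:**
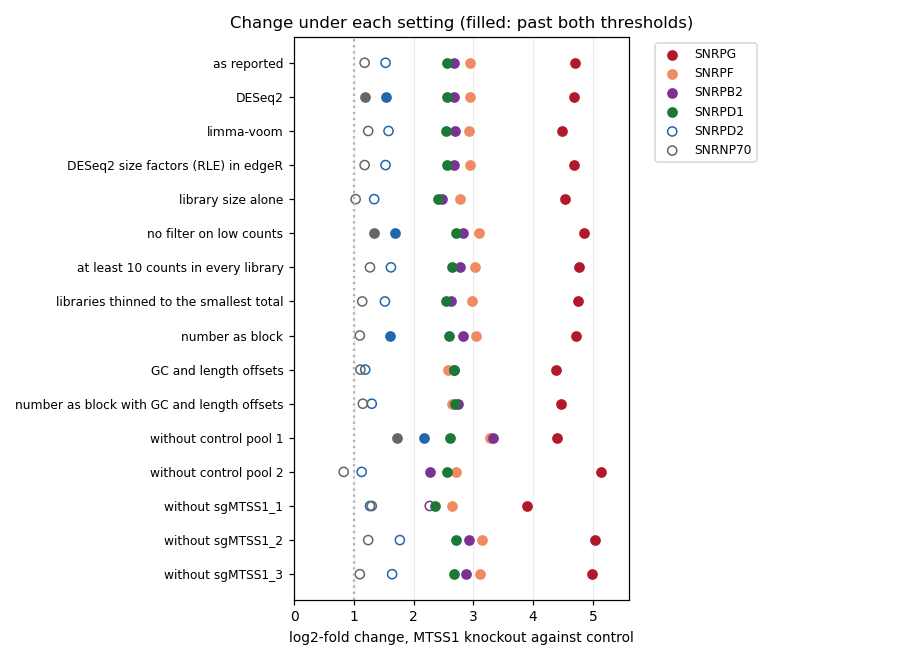
log2-fold changes of the 4 called genes and of *SNRPD2* and *SNRNP70* as reported and under each of 15 alternatives, filled where both thresholds were passed. *SNRPG* lies between 3.90 and 5.14 throughout, and *SNRPB2* is open only without the sgMTSS1_1 pool.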

How the data were processed

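RNA-seq of TF-1 cells was analysed in 5 libraries, 2 from control and 3 from *MTSS1* knockout pools, assigned by their labels. The authors prepared QuantSeq 3′ libraries, trimmed the single-end reads with BBDuk, aligned them to GRCh38 with HISAT2 2.1.0, and used SAMtools 1.10 to keep reads with a single place in the genome. They deposited raw counts for each Ensembl gene without normalization. The processing notes also name FastQC 0.11.9 and DESeq2. How PCR duplicates and strand were treated, which annotation release was counted, and by which program, is not given in the sources used here. A further control pool and the sgMTSS1_4 pool, left out by the authors, were not analysed here.

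Counts were filtered by filterByExpr (minimum count 10), normalized with TMM, and tested with edgeR 4.0.16 (glmQLFit, glmQLFTest) in R 4.3.3 with condition as the only term. Adjusted p-values are Benjamini-Hochberg values over the 14391 genes tested. Differential expression required an adjusted p under 0.05 and a log2-fold change beyond 1. SEs derive from the fold change and the F statistic. The biological coefficient of variation was 32.2%. No libraries agreed within sampling noise, the smallest SD of log2 ratios between a pair being 0.534. Positions, overlaps, and pseudogenes come from GENCODE release 44. Genes shown in full are those past both thresholds, the largest change of each role group, *SF3B1*, *U2AF1*, *SRSF2*, and *ZRSR2*, and the 3 largest falls, and of the other lists up to 3 called genes each. *CASC3* and *MAGOHB* were named after their values were seen. The genes, lists, and tests were chosen with earlier results of these data known. Alternatives were DESeq2 1.42.0, limma-voom (limma 3.58.1), other normalization, other filters, thinned libraries, the number in the label as a block, offsets for GC content and transcript length (mgcv 1.9.3), a lower fold threshold, and each pool left out. The test was tested on simulated data. Figures were drawn with matplotlib 3.10.9.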

Additional observations from a re-analysis of the deposited data

Results flagged for a closer look

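The row of the artificial second copy of *U2AF1*, which is not among the 40 genes, was called higher in the *MTSS1* knockout, with a log2-fold change of 2.49. It stands out because it is signal outside the genes compared, above the level in the control pools, and because the row of *U2AF1* itself was at -0.13. The copy had 28 and 13 counts in the control and 285, 163, and 231 counts in the knockout libraries. Which copy a read was assigned to depends on the mapping and on the treatment of reads that fit both, and how much of the difference in the share on the duplicate comes from there was not tested.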

How the results depend on the processing

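Depth and pool number set the limits. Both control libraries were shallower than every knockout library, and depth cannot be told apart from the condition. In libraries thinned to the smallest total, 4 genes were called higher, beside 4.57% of all tested genes. Thinning equalizes the totals only, and the part of depth in the result was not tested. With 2 control pools, the direction for *SF3B5*, *PRPF4*, and *PRPF6* changed with the control pool kept. Genes with few unique reads (*U2AF1*, *SNRPA1*, *SF3B4*) are measured on little.

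Without leaving out a pool, 4 to 6 spliceosome genes were called higher and 0 lower, where 3.54% to 7.02% of all tested genes were called higher. Of 428 values of single genes under these alternatives, 10 changed sign. With library size alone the median of all tested genes moved to -0.17 and that of the spliceosome genes to -0.02, and *LSM7* (-0.10), *LSM8* (-0.02), and *SF3A3* (-0.04) changed sign. Without a filter on low counts *U2AF1* was at 0.02, and with its duplicate added at 1.88. With GC and length offsets *LSM7* was at -0.24 and *SF3B1* at 0.07. Of the other splicing lists, 11 genes were called higher by DESeq2, beside 7.02% of all tested genes. Without a filter the number was 10, beside 4.29%, against 6 and 4.17% in the main test. In these lists 0 genes were called lower, against 1, by limma-voom and with at least 10 counts in every library. The same held in thinned libraries, with the block, with the offsets, and with both. The gene called lower, *EDC4*, had 4, 1, and 1 counts in the knockout libraries. The filter of at least 10 counts in every library therefore removed it before testing. For the other settings the cause was not tested.

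The numbers 1 and 2 occur in both groups, but nothing in the labels says that they mark a shared culture, and the deviations of same-numbered pools had a correlation of 0.17, which is a single pair of differences and leaves it unsettled whether the numbers mark more than a name. With the number as a block, 5 spliceosome genes were called higher, *SNRPD2* among them at 1.61, and the median was 0.19. Of 14391 tested genes, 1094 were called with the block, 745 in the main test, and 1343 by DESeq2. Without a filter, 1374 of 27328 genes were called. The shares called higher were, in the same order, 6.21%, 4.17%, 7.02%, and 4.29%. With block and offsets *LSM2* was at -0.07, *LSM7* at -0.05, and *SF3B1* at 0.11. The block changed no other call of a spliceosome gene.

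With each pool left out in turn, 3 to 7 spliceosome genes were called higher and 0 to 2 lower, and past the adjusted p alone likewise 3 to 7 and 0 to 2. Their median ran from -0.09 (without sgMTSS1_1) to 0.35. The largest numbers called higher and lower came without control pool 1, which left a single control pool. Without sgMTSS1_1, 3 spliceosome genes were called higher, beside 0.801% of all tested genes. Without sgMTSS1_2 and without sgMTSS1_3 the number was 4, beside 2.41% and 1.38%. Of the other lists, 2 to 10 were called higher and 0 to 3 lower. Over all 13358 genes tested without sgMTSS1_1, 111 were called in either direction. A change of sign was seen for *SNRPB* (-0.63 to 0.65), *SNRPD3* (-0.35 to 0.03), *SNRPA* (-0.82 to 0.29), *SNRPA1* (-0.82 to 0.00), *LSM2* (-0.01 to 0.51), *LSM3* (-0.19 to 0.70), *LSM7* (-0.30 to 0.65), *LSM8* (-0.16 to 0.36), *SF3A3* (-0.11 to 0.25), *SF3B1* (-0.37 to 0.14), *SF3B5* (-0.59 to 2.18), *SF3B6* (-0.67 to 0.35), *U2AF1* (-0.36 to 0.19), *U2AF2* (-0.34 to 0.01), *PRPF3* (-0.49 to 0.10), *PRPF4* (-1.55 to 0.10), *PRPF6* (-1.43 to 0.24), and *PRPF8* (-0.38 to 0.04).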

Other observations

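*SNRPN* lies in an imprinted region on chromosome 15, where *SNHG14*, the long noncoding host of the SNORD115 and SNORD116 snoRNAs, overlaps it on the same strand. *SNHG14* was at 5.94 and 1.79 CPM in the control pools and at 4.54, 52.5, and 4.35 CPM in the knockout pools by guide number, so that the sgMTSS1_2 pool was the highest for both transcripts. Its log2-fold change was 2.40 (SE 1.15) with an adjusted p of 0.247. *UBE3A*, a neighboring imprinted gene, was at 149 and 136 against 123, 142, and 149 CPM (-0.04). *MKRN3*, another gene of the region, was at 5.32 and 1.49 against 0.389, 0.542, and 0.696 CPM and had too few reads to be tested.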
